A study of Mus musculus with 6 samples.

Results

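Col1a1, Col3a1, Col9a2, Lum, Fn1 and Itih5 are the collagen and extracellular matrix genes of this series, 6 of the 265 genes in the larger of its primer sets. They were chosen by name, and each gene's UMIs (unique molecular identifiers, the molecules counted) were summed over its amplicons in every cell. The cells came from hypothalami of C57/Bl6 mice with the genotype KLB-CRE; Ai14, in which tdTomato marks cells whose lineage has used the Cre allele of Klb, the gene of the FGF21 co-receptor. All groups share this genotype, and the labels give no age, no treatment and no control strain. Each of 3 captures pooled 3 hypothalami, was sorted for tdTomato and viability, and was read with 2 custom BD Rhapsody primer panels. The larger set was measured in 4 of the 6 libraries: panel 2 of replicates 1, 2 and 3, called P2R1, P2R2 and P2R3 here, and the library labelled panel 1 of replicate 1, called P1R1, which holds counts of the larger set alone.

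The extracellular matrix is the mesh of proteins and sugars that cells secrete around themselves. In brain it is rich in hyaluronan and proteoglycans, whereas fibrillar collagens are largely restricted to the meninges and the walls of larger vessels, where fibroblasts make them. Col1a1 and Col3a1 encode chains of collagens I and III, the main fibrillar collagens. Col9a2 encodes a chain of collagen IX, a collagen of cartilage that sits on the surface of fibrils. Lum encodes lumican, a small leucine-rich proteoglycan that binds collagen fibrils. Fn1 encodes fibronectin, a glycoprotein of vessel walls and of plasma. Itih5 encodes a member of the inter-alpha-trypsin inhibitor heavy chain family, whose members bind hyaluronan.

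The libraries differed in depth and in make-up, and these differences stand beside every value below. Barcodes with at least 20 UMIs and 5 genes were kept as cells. P1R1 kept 950 of 1555 barcodes with a median of 51 UMIs, while the 3 libraries of panel 2 kept 44, 43 and 87 barcodes with medians of 115.5, 1352 and 1068. Total counts ran from 11423 to 109452 UMIs. A further 21 barcodes stood in tables of both replicate 2 and replicate 3 and were left out of every comparison. The tdTomato transcript, on which the cells were sorted, had a UMI in 29.6% of cells of P1R1, in 0 of 44 of P2R1, in 95.3% of P2R2 and in 98.9% of P2R3. Fcer1g, a receptor subunit of myeloid cells, had a UMI in 73.7% of cells of P1R1 and in 100% of cells of each panel 2 library. Bcas1, a gene of the oligodendrocyte lineage, stood at 96.4% and 100%, and Trim28, a widely used transcriptional co-repressor, at 83.4% and 100%. Fcer1g and Bcas1, markers of unrelated cell types chosen as widespread genes, were thus present in most barcodes of each library. For this reason, 1 UMI of a matrix gene is not read here as expression by that cell. Other markers were not so widespread, with Slco1c1 at 0 in all 3 libraries of panel 2.

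Matrix genes were found in 2 of the 4 libraries. P1R1 held UMIs of 5 of the 6 genes, with Col1a1 at 0. P2R3 held all 6. P2R1 and P2R2 held none of the 6 in any cell. Of the 265 genes of the set, 22 (8.30%) were detected in P1R1 and P2R3 and at 0 in the others, and 5 of the 6 matrix genes were among them. The remaining gene, Col1a1, was 1 of 7 genes found in P2R3 alone. Whether the primers of all 265 genes were used in every one of these libraries is not given in the sources used here, so each 0, its limit and each fold set against it hold only if they were. Absence from both P2R1 and P2R2 was also common in other genes. Of the 265 genes, 92 (34.7%) were found in none of the 4 libraries and 36 (13.6%) in P1R1 alone. In all, 50 genes were detected in P2R1 and 93 in P2R2, against 157 and 120 in the libraries with matrix genes.

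**Figure D1:**
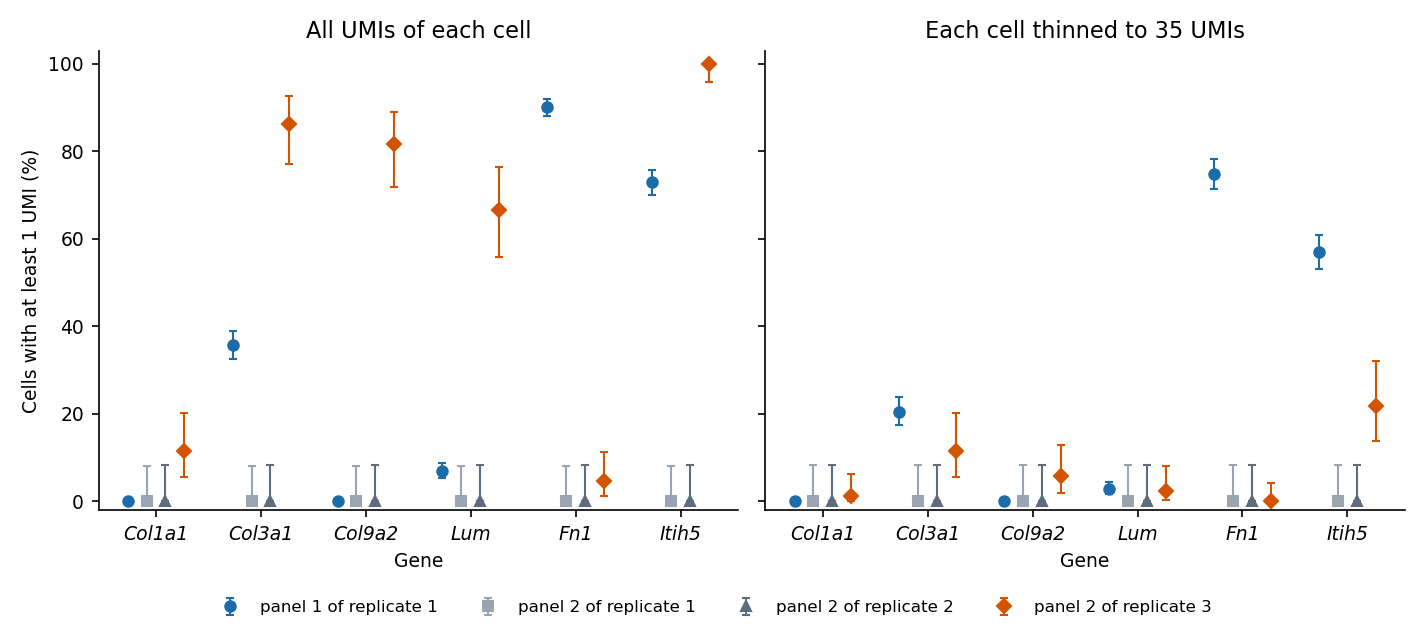
Share of cells with at least 1 UMI (y axis, percent) of each matrix gene (x axis) in the 4 libraries, with all UMIs (left) and after each cell was thinned to 35 UMIs (right). Points are libraries and bars are exact 95% Clopper-Pearson intervals. P2R1 and P2R2 sit at 0 for all 6 genes, and Itih5 falls from 100% to 21.8% in P2R3 on thinning.

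Of the 2 fibrillar collagens, Col3a1 had the higher counts. It had a UMI in 339 of 950 cells of P1R1 (35.7%, 95% Clopper-Pearson interval 32.6 to 38.8) and in 75 of 87 cells of P2R3 (86.2%, 77.1 to 92.7). P2R1 and P2R2 had 0 of 44 and 0 of 43 cells, which allows shares of up to 6.82% and 6.98%. The 2 libraries with Col3a1 changed order at equal depth: thinned to 35 UMIs per cell, 20.5% of 644 cells carried it in P1R1 and 11.5% of 87 cells in P2R3. As a level, Col3a1 took 5.68 of 1000 UMIs (exact Poisson 95% interval 5.24 to 6.16) in the former and 2.77 (2.47 to 3.10) in the latter. These intervals cover counting error only, and each of these libraries is a single capture.

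Col1a1 was close to the limit of counting. It had 0 UMIs in the 950 cells of P1R1, which allows a share of up to 0.316%, and 11 UMIs in 10 of 87 cells of P2R3 (11.5%, 5.65 to 20.1), a level of 0.101 per 1000 UMIs (0.0502 to 0.18). No cell held more than 2 UMIs of it. Of the 10 cells, 8 also held Col3a1, which was present in 67 of the 77 cells without Col1a1, so Col3a1 was not met more often beside Col1a1.

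Col9a2 was nearly confined to P2R3 among the 4 libraries. It had 228 UMIs in 71 of the 87 cells there (81.6%, 71.9 to 89.1), or 2.08 per 1000 UMIs, and 1 UMI in 1 of 950 cells of P1R1, or 0.00945 per 1000. The other 2 libraries had none. Thinned to 35 UMIs, 5.75% of the cells of P2R3 kept a UMI of Col9a2. Comp, which encodes another cartilage matrix protein and was chosen after its values were seen, was likewise found in P2R3 alone, in 18 of 87 cells (20.7%).

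Lum was the only one of the 6 genes whose level had overlapping counting intervals in the 2 libraries that held it. It took 0.860 of 1000 UMIs (0.693 to 1.06) in P1R1 and 1.08 (0.892 to 1.29) in P2R3. The shares of cells, 6.95% of 950 (5.41 to 8.75) and 66.7% of 87 (55.7 to 76.4), differed far more. After thinning to 35 UMIs they were 2.80% and 2.30%. Other thinnings gave the opposite order, with 2.95% and 5.75% in a second draw at this depth, 2.89% and 3.90% as the expected shares over all draws, 1.05% and 3.45% at 20 UMIs and 5.49% and 11.5% at 100 UMIs. No order of the 2 libraries is read from the first draw.

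Fn1 showed the reverse of Col9a2. It was the gene with the second most UMIs of P1R1, with 5320 UMIs in 857 of 950 cells (90.2%, 88.1 to 92.0) and 50.3 of 1000 UMIs (49.0 to 51.7). In P2R3 it had 4 UMIs in 4 of 87 cells (4.60%), or 0.0365 of 1000 (0.00996 to 0.0936), and in P2R1 and P2R2 it had none. The cells of P2R2 were deeper, and at the level of P1R1 their 79560 UMIs would have held 4002 of Fn1. Against P2R1, Fn1 was at least 191.5-fold higher in P1R1, with a limit of 3 counts per library set against the 0. The labels give both libraries replicate 1, but their tables share 0 cell indices, and the files do not show that they came from the same cells. Thinned to 35 UMIs, Fn1 was kept in 74.8% of cells of P1R1 and in 0 of 87 cells of P2R3, which allows up to 3.45%.

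Itih5 was the matrix gene with the largest share in P2R3, with a UMI in each of the 87 cells, a median of 5 and a range of 1 to 30 UMIs per cell. In P1R1 it had a UMI in 694 of 950 cells (73.1%, 70.1 to 75.9), with 25.5 of 1000 UMIs against 4.92 in P2R3. At 35 UMIs per cell the order was the same as that of the levels, with 57.0% of cells against 21.8%. Itih5 was also the only one of the 6 genes read by 2 amplicons. The amplicon named for the poly(A) end gave 90.1% of its UMIs in P1R1 and 78.5% in P2R3, and the one at the end of the reference transcript gave the rest. Markers of 2 other cell types stood with Fn1 and Itih5. The 3 measured genes of the endothelial list, Slco1a4, Slco1c1 and Slc2a1, took 85.2 of 1000 UMIs in P1R1 against 1.58, 9.82 and 7.04 in P2R1, P2R2 and P2R3, with Slco1c1 at 0 in all 3 of the latter and Slco1a4 at 0 in P2R1 and P2R2. The 6 measured genes of the tanycyte list took 40.2 against 0.0875, 0.729 and 3.97, with 0 of the 6 at 0 in P1R1 and 5, 4 and 3 at 0 in the others, Gpr50 among them in all 3. Of these genes Adm alone went the other way, with 1 UMI in P1R1 and 73 UMIs in P2R3, or 0.00945 and 0.667 of 1000. The part of these cell types in the result was not tested. Since the amplicons of different genes have different primers, levels are read here between libraries. Where genes are ranked by counts or shares, the order describes what was counted and not their relative expression.

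**Figure D2:**
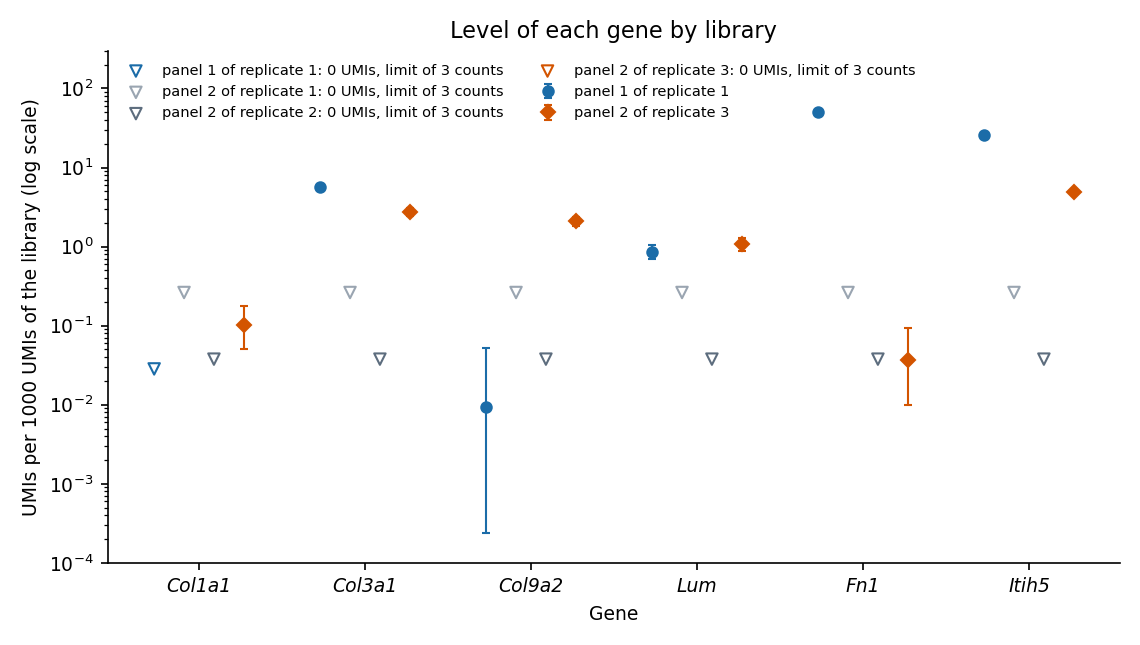
UMIs of each matrix gene per 1000 UMIs of its library (y axis, log scale) by gene (x axis). Filled points carry exact Poisson 95% intervals, and open triangles mark libraries with 0 UMIs at the limit that 3 counts give. Fn1 lies at 50.3 in P1R1 and 0.0365 in P2R3, and Col9a2 the other way round at 0.00945 and 2.08.

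The design allows a comparison of P1R1 with the 3 libraries of panel 2, with counts summed per library. Among 157 genes tested by edgeR's quasi-likelihood test with Benjamini-Hochberg adjustment, 2 (1.27%) were called, both higher in P1R1, and 4 had an unadjusted p under 0.05. Fn1 was 1 of them, with a log2 fold change of 12.03 (SE 2.61, adjusted p = 0.000900), the other being Slco1c1, a thyroid hormone transporter of brain endothelium and astrocytes (adjusted p = 0.00379), with 3738 UMIs in P1R1 and 0 in panel 2. Both passed the filter on low counts only through P1R1, and P1R1 has no replicate, so its spread is assumed to be that of panel 2 and the calls compare this library with panel 2. The size of the Fn1 fold depends on how the fit treats the 2 libraries at 0, and the call was lost without P2R2 (adjusted p = 0.327, in a range of 1.39e-05 to 0.327 over the alternatives run). Col3a1, Lum and Itih5 had log2 fold changes of 3.01, 1.64 and 4.35 and Col9a2 of -5.63, with adjusted p from 0.636 to 0.999, and Col1a1 had too few counts to be tested. The median log2 fold change of all tested genes was 0.54 and the biological coefficient of variation 2.06. Panel and pipeline version cannot be told apart in P1R1.

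Over the 3 captures of panel 2 the shares of cells were 28.7% ± 49.8 for Col3a1, 27.2% ± 47.1 for Col9a2, 22.2% ± 38.5 for Lum, 33.3% ± 57.7 for Itih5, 3.83% ± 6.64 for Col1a1 and 1.53% ± 2.65 for Fn1 (mean ± SD, n = 3 captures). Each SD exceeds its mean because replicate 3 alone supplied the UMIs. Without replicate 3 all 6 means were 0.

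In P1R1, deeper cells held the matrix genes more often. There, cells were ranked by the UMIs of all other genes and cut into 3 groups of 316 or 317 cells. The share of cells with Col3a1 was 15.1%, 32.6% and 59.3% from the shallow to the deep group, yet its level was 5.84, 7.80 and 5.22 of 1000 UMIs. Itih5 gave shares of 49.8%, 72.8% and 96.5% at levels of 23.6, 22.5 and 26.3 of 1000 UMIs. The levels of these 2 genes had no order by depth. In P2R3, where 29 cells made up each group, neither the shares nor the levels of Col3a1, Lum, Col9a2 and Itih5 were ordered. Those of Col1a1 rose with depth, but on 2, 3 and 5 cells with a UMI. The shares were 82.8%, 82.8% and 93.1% for Col3a1, 69.0%, 51.7% and 79.3% for Lum, 79.3%, 72.4% and 93.1% for Col9a2 and 100% in each group for Itih5. The levels of Col9a2 there were 3.66, 1.23 and 1.91 of 1000 UMIs, and those of Lum 1.81, 0.849 and 0.901. Single barcodes described below lay in the shallow group and held 40 of its 85 UMIs of Col9a2 and 14 of its 42 UMIs of Lum. The higher levels of that group are therefore not read as a trait of shallow cells. A cell of P1R1 held a mean of 2.06 of the 6 genes and a cell of P2R3 3.51, which became 1.55 and 0.425 at 35 UMIs per cell. The 94 thinned cells with a UMI of a neuronal marker and the 550 without carried Fn1 in 76.6% (66.7 to 84.7) and 74.5% (70.7 to 78.1), and Col3a1 in 16.0% (9.22 to 24.95) and 21.3% (17.9 to 24.9), with medians of 78 and 81 UMIs before thinning. The intervals of the 2 sets of cells overlap for both genes. A UMI of a neuronal marker does not show that a cell is a neuron, so no source of either gene is read from this.

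A few single barcodes stood far above the mean profile of their library. They were found by looking for the barcode furthest above the mean profile of its library for each gene with at least 50 UMIs, and so are described and not tested. In P1R1, 1 barcode with 231 UMIs held 20 of Lum, where the profile of the other cells gives 0.155. The same barcode held 18 of Col3a1 where 1.28 were expected and 44 of Itih5 where 5.81 were expected, but 1 of Fn1 where 11.6 were expected. It carried 22.0% of all Lum UMIs of the library, and no other cell held more than 2 of Lum. Vamp2, a synaptic vesicle gene, was the only other gene in it with at least 5 UMIs and at least 5 times its expected count, at 24 against 2.41. The barcode furthest above the profile for Col3a1 was another one, with 13 of Col3a1 among 71 UMIs where 0.395 were expected, and with 0 of Lum and 0 of Itih5. In all, 5 of the 950 cells held at least 5 UMIs and 5 times the expected count of Col3a1, which came to 63 UMIs or 10.48% of the gene's total, and 1 of these 5 held Lum. The barcode furthest above the profile for Itih5 had 2444 UMIs, with 192 of Itih5 where 59.3 were expected and 4 of Col3a1 where 14.1 were expected. It also held 181 of Slco1a4 against 51.8, 224 of Slc2a1 against 63.4 and 263 of Slco1c1 against 82.2 expected.

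A similar barcode was present in P2R3. It had 906 UMIs, a rank of 63 by depth among the 87, and held 40 of Col3a1 where 2.20 were expected, 14 of Lum where 0.868 were expected and 13 of Itih5 where 4.39 were expected, together with 1 of the 11 UMIs of Col1a1. It was the barcode furthest above the profile for Col3a1, for Lum and for Itih5. It also held 71 UMIs of Anxa2 against 3.25 expected, 47 of Rarres2 against 8.10, 14 of Bmp2 against 0.292, 35 of Nenf against 6.09, 10 of Fgfr1 against 1.25, 8 of Slc7a11 against 0.568 and 9 of Slc6a13 against 1.29. Slc6a13, a GABA and taurine transporter of the leptomeninges, is the 1 measured gene of the fibroblast list besides Col1a1, Col3a1 and Lum. The myeloid gene Fcer1g stood at 33 UMIs in it against 90.0 expected. In the barcode of P1R1, Slc6a13 stood at 1 UMI against 0.845 expected.

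Col9a2 had a barcode of its own. It had 929 UMIs, of which 40 were Col9a2 where 1.61 were expected, and it held 2 of Col3a1 against 2.58, 0 of Lum against 1.01 and 1 of Itih5 against 4.61. No other gene in it reached 5 UMIs and 5 times the expected count. Col9a2 was therefore high in a different barcode from the one that was high in Col3a1 and Lum, in the same library.

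**Figure D3:**
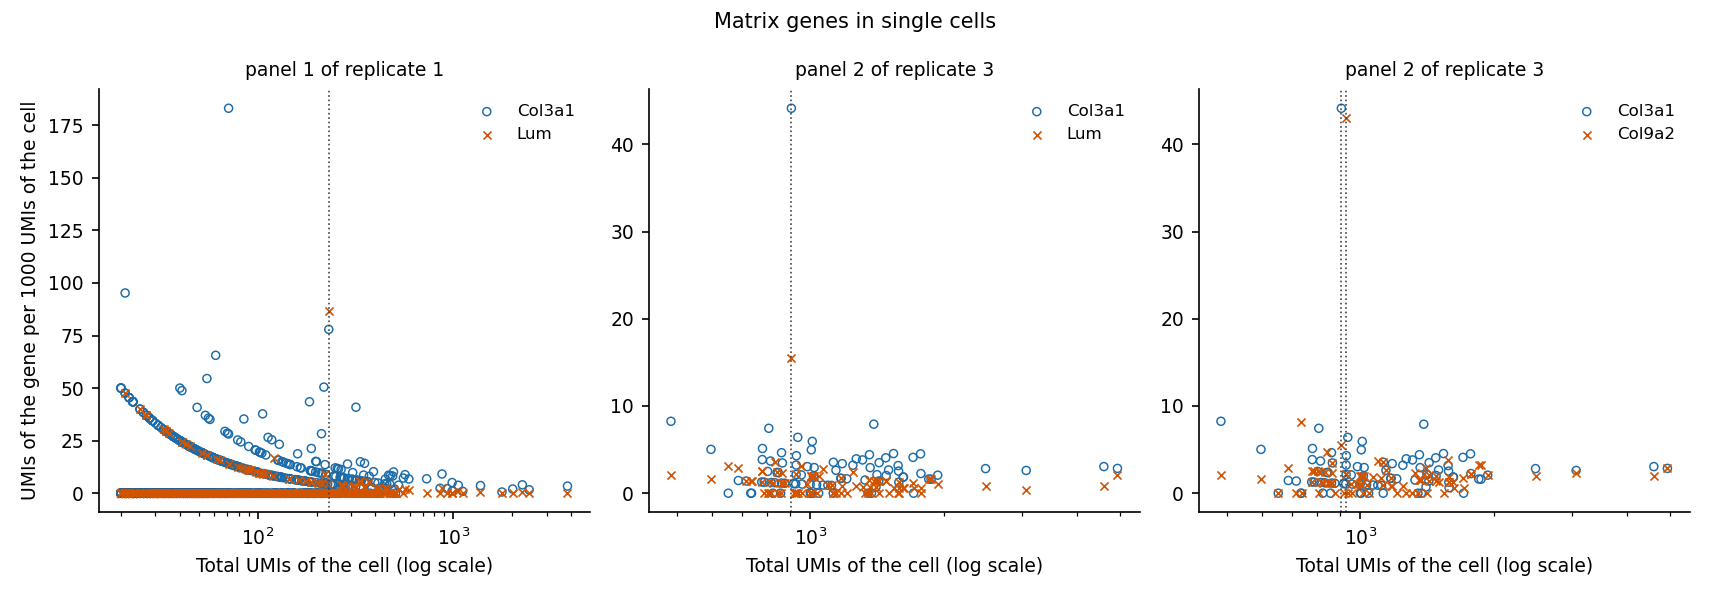
UMIs of a matrix gene per 1000 UMIs of the cell (y axis) against the total UMIs of the cell (x axis, log scale), 1 mark per cell and gene. Dotted lines mark the barcodes described in the text, where Col3a1 (circles) and Lum (crosses) are both high at 231 and 906 total UMIs and Col9a2 (crosses, right) is high at 929. The curved bands on the left are cells with 1, 2 and more UMIs of a gene.

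Upstream stretches are shown to set the letters before the start of Col3a1 beside those of Col9a2, whose highest barcodes in P2R3 differed, and of Itih5, which had a UMI in every cell there. RefSeq entries of build GRCm38.p6 were at hand for 3 of the 6 genes, and Lum, Fn1 and Col1a1 had no entry. Each line gives the 250 bases before the annotated start, 5′ to 3′ on the plus strand, from chr1:45311288-45311537 for Col3a1, chr2:10153293-10153542 for Itih5 and chr4:121039316-121039565 for Col9a2. Capitals mark matches on either strand to the TATA box (letters TATAAA), the CCAAT box (by its name) and the GC box (letters GGGCGG), none of which overlap each other.
Col3a1: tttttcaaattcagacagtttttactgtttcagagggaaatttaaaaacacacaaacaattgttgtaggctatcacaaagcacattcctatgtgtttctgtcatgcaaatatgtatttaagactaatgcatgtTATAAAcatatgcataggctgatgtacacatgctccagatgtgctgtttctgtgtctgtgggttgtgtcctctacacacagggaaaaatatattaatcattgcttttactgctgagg
Itih5: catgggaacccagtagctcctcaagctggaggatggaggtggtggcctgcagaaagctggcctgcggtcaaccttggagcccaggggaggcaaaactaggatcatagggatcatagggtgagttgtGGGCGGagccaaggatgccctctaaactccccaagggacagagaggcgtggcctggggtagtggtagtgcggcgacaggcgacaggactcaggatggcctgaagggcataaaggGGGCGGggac
Col9a2: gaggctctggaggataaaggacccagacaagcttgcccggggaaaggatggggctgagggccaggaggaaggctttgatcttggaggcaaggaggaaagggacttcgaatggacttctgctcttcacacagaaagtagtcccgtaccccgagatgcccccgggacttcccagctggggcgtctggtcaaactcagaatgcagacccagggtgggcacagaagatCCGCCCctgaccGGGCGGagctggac
Col3a1 had 1 match to the TATA box, starting 117 bases before the annotated start, and none to the other motifs, with 35.2% G and C. Itih5 and Col9a2 had 2 matches each to the GC box and none to the TATA box, with 61.2% and 60.4% G and C against a median of 52.4% over all windows. Of all 32851 windows of this length, 12.4% held the TATA box, 33.8% the CCAAT box and 32.7% the GC box. The GC box is thus common and the TATA box less so, and all these matches describe letters only.

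The spread of each gene around the mean profile was summarised by chi-square per degree of freedom, which is near 1 when cells differ by counting alone. In P2R3 it was 9.66 for Col9a2, 7.82 for Col3a1, 2.90 for Lum and 1.4996 for Itih5, against a median of 4.42 over 91 genes with at least 50 UMIs. Leaving out the 1 barcode furthest above the profile brought Col9a2 to 1.07, Col3a1 to 1.44, Lum to 0.980 and Itih5 to 1.34. With all cells, 19 of the 91 genes (20.9%) were under 1.5, Itih5 already among them. For 38 of the 91 genes (41.8%) the spread without the gene's own top barcode was under 1.5, and all 4 matrix genes were among them. In P1R1 the same step took Lum from 3.01 to 1.19 and Col3a1 from 1.91 to 1.53, whereas Itih5 moved only from 2.37 to 2.19. Of 118 genes with at least 50 UMIs in P1R1, 61 (51.7%) were under 1.5 without their own top barcode, and of the 4 matrix genes Lum alone was among them. Fn1 went from 5.80 to 2.94, and its top barcode was the deepest cell of the library, with 956 of its 3838 UMIs from Fn1 where 164 were expected. Without that cell the level of Fn1 was 42.8 of 1000 UMIs.

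**Figure D4:**
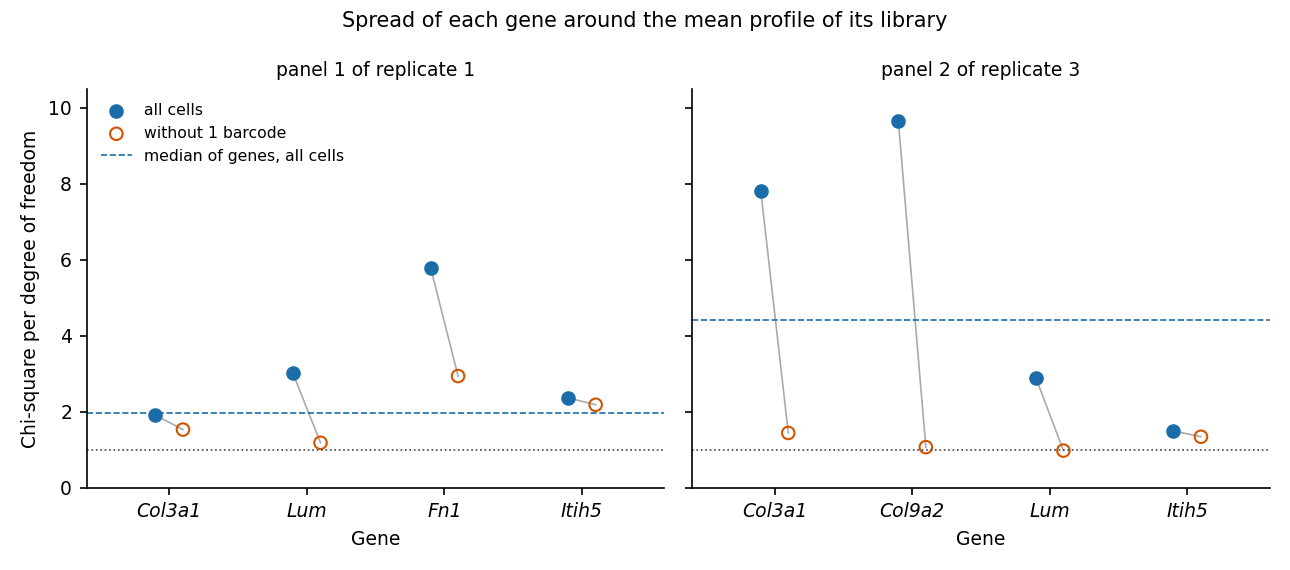
Chi-square per degree of freedom (y axis) of each matrix gene with at least 50 UMIs (x axis) with all cells (filled) and without the 1 barcode furthest above the mean profile for that gene (open). The dotted line at 1 is counting error alone and the dashed line the median of all such genes with all cells. Col9a2 drops from 9.66 to 1.07 and Col3a1 from 7.82 to 1.44 in P2R3.

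Correlations among the genes across cells, all of 1 library and thinned to the same depth, were computed with and without these barcodes. At 35 UMIs in 644 cells of P1R1, Pearson's r was 0.148 for Lum and Itih5, 0.106 for Col3a1 and Itih5 and 0.102 for Col3a1 and Lum, where the median of all 6670 gene pairs was -0.011 and the middle 95% of pairs ran from -0.072 to 0.092. Without the 1 barcode rich in Lum, the same values were 0.010, 0.0099 and -0.035. Fn1 gave r of 0.017 with Itih5, -0.0069 with Lum and -0.026 with Col3a1, the last with a Spearman's rho of -0.093. Fn1 was kept in 65.2% (56.4 to 73.2) of the 132 thinned cells with Col3a1 and in 77.3% (73.5 to 80.9) of the 512 without, whose medians before thinning were 73.5 and 83.5 UMIs. At 100 UMIs and without the barcode rich in Lum, r of Fn1 and Itih5 was 0.137. Thinned to 100 UMIs, which left 273 cells, r reached 0.511 for Col3a1 and Lum and 0.438 for Lum and Itih5, and fell to 0.103 and 0.0032 without the barcode. In P2R3 at 100 UMIs, r was 0.426 for Col3a1 and Lum and 0.20 without the barcode rich in both, while Col3a1 and Col9a2 gave -0.022. These are descriptions of sparse counts, and weak values among them carry no finding.

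The genes with the highest r to each matrix gene at 35 UMIs were named for P1R1 and P2R3. Their values were compared with those of a second random thinning and of a depth of 100 UMIs. In P2R3 the closest to Col3a1 was the tdTomato transcript, with r = 0.538 over 87 cells, of which 10 kept Col3a1, 11 tdTomato and 6 both. The second thinning gave 0.047 and a depth of 100 UMIs gave -0.067, so this value did not hold. Camk2n1 and Cspg4 followed for Col3a1 at 0.216 and 0.201. They gave -0.051 and 0.179 in the second thinning and 0.072 and 0.025 at 100 UMIs. Itih5 was closest to Cspg4, the NG2 proteoglycan, at 0.309, to Rarres2, the chemerin gene, at 0.308 and to Acta2, smooth muscle actin, at 0.287. These became 0.057, 0.379 and 0.028 in the second thinning and 0.115, 0.080 and -0.161 at 100 UMIs. In P1R1, Fn1 was closest to Commd9 at 0.153, to Slco1c1 at 0.130 and to Gja1, the gap junction gene of astrocytes, at 0.109. In the second thinning these were 0.090, 0.129 and 0.092. At 100 UMIs they were -0.018, 0.332 and 0.087, so Slco1c1 was the one of the 3 with a larger value there. Besides each other, Col3a1 was closest to Enkur at 0.116, Lum to Zfp975 at 0.194 and Itih5 to Irs1 at 0.131. The values were 0.00066, 0.147 and 0.024 in the second thinning and -0.061, -0.029 and 0.166 at 100 UMIs.

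Few other matrix genes were on the panels. Of a list of 156 extracellular matrix genes 9 were measured, the 6 above and Cspg4, Cspg5 and Anxa2. Cspg4 and Anxa2 were found in all 4 libraries, the former in 90.9%, 97.7%, 100% and 100% of cells and the latter in 84.3%, 61.4%, 100% and 92.0%, with P1R1 first and then panel 2 by replicate. Cspg5, the neuroglycan C proteoglycan, was found in P1R1 alone, in 14.1% of cells. Genes of the list were therefore not all at 0 in P2R1 and P2R2. Slc6a13 had a UMI in 93.2% of 44 cells of P2R1, where Col1a1, Col3a1 and Lum were at 0, and in 23.5%, 0 of 43 and 77.0% of cells of the other libraries. The fibroblast list thus had all 4 measured genes detected in P2R3, 3 in P1R1, 1 in P2R1 and none in P2R2, and the part of such cells in the values above was not tested.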

How the data were processed

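The authors deposited raw UMI counts, with a row for each cell and a column for each amplicon. Per the file headers, 1 table came from version 1.3 and 5 from version 1.5 of the pipeline BD supplies for targeted Rhapsody data. The submitters' processing notes name mm9 as the build. No aligner and no rule for calling cells is given in the sources used here.

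Rows were assigned to a library by the gene set they carry, and the 21 barcodes present in tables of 2 replicates were left out. These 21 rows hold 1 value more than the larger set of the header they stand under, at column 148, so later columns stand 1 place off. The matrix genes end at column 146. Barcodes with at least 20 UMIs and 5 genes were kept, and no doublets were called. Depth was 105772 UMIs in P1R1, and 11423, 79560 and 109452 in P2R1, P2R2 and P2R3. Shares carry exact Clopper-Pearson 95% intervals, levels exact Poisson ones, and a 0 the limit of 3 counts, all for counting error only. Cells were thinned to 35 UMIs with a fixed seed, which left out 306 cells of P1R1 and 1 of P2R1. The panel 2 libraries are separate captures, each of pooled animals, and cells were not treated as replicates.

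Counts summed per library were compared with the quasi-likelihood test of edgeR 4.0.16, after filterByExpr and TMM scaling, and DESeq2 1.42.0 in R 4.3.3. The steps were tested on simulated data. Other values came from scipy 1.17.1, pandas 2.3.3 and numpy 2.4.6 under Python 3.11.15, and figures from matplotlib 3.10.9. The genes, lists and tests were chosen with earlier results of these data known. Named genes are the 6 matrix genes, the 3 genes most correlated with each where at least 10 thinned cells held it, up to 4 genes per list, and Fcer1g, Trim28 and Bcas1 beside them. Single barcodes, tdTomato in them and Comp were chosen after their values were seen. The matrix, fibroblast, endothelial and tanycyte lists are described, and results on some other genes are not reported here.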

Additional observations from a re-analysis of the deposited data

Results flagged for a closer look

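Matrix genes were also present in barcodes that no comparison used. Among the 21 barcodes that stand in tables of 2 replicates, Fn1 had a UMI in 85.7% (18 barcodes) and Itih5 in 90.5% (19 barcodes). The other 4 genes were at 0 in them. Fn1 and Itih5 took 10.4 and 13.4 of 1000 UMIs, and 214 of the 249 Fn1 UMIs and 280 of the 322 Itih5 UMIs were in 1 barcode with 16922 UMIs. Without that barcode the levels were 4.97 and 5.96 of 1000. The barcodes stand in the table of panel 2 of replicate 2, whose other cells held none of the 6 genes, and in that of panel 1 of replicate 3. All 322 UMIs of Itih5 came from the amplicon named for the poly(A) end.

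In the 605 barcodes of P1R1 with too few UMIs or genes to be kept, with a median of 11 UMIs, Fn1 had a UMI in 53.7%, Itih5 in 25.6% and Col3a1 in 5.95%. Their levels were 53.2, 23.5 and 5.32 of 1000 UMIs, against 50.3, 25.5 and 5.68 in the cells that were kept, and the counting intervals of each pair overlap.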

How the results depend on the processing

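Of the 6 genes, 5 were detected in P1R1, 0 in P2R1 and 6 in P2R3, also with all barcodes, with a stricter filter, without the deepest cells and with 1 amplicon per gene. With at least 2 UMIs required, Col9a2 in P1R1 and Fn1 in P2R3 dropped out, which left 4 and 5. In P2R2 0 were detected, and 2 when the 21 barcodes in tables of 2 replicates were kept. The number of genes called between P1R1 and panel 2 was 2 with edgeR, also with DESeq2's size factors or without a filter, 6 with DESeq2 itself (3 higher, 3 lower, 28 with an unadjusted p under 0.05 of 173), and from 0 to 9 when 1 panel 2 library was left out (0 without replicate 2, 1 without replicate 3, 9 without replicate 1). Fn1 was called with DESeq2 too, but on the same libraries and with P1R1 unreplicated, so this adds no independent support. The log2 fold change of Fn1 in edgeR was 11.48 without P2R2, where the call was lost. No paired analysis was possible because the groups share only replicate number 1, which leaves no residual degrees of freedom with a replicate block. The thinned shares stayed within their 95% intervals under a second thinning and under the expected share over all thinnings, an alternative chosen after the data were seen, in 9 of the 9 shares above 0. They moved beyond them in 6 of 9 at 20 UMIs and 7 of 9 at 100 UMIs. Full-depth shares above 0 moved beyond their intervals in 11 of 11 when 2 UMIs were required, in 4 of 11 with all barcodes and 4 of 11 with a stricter filter, and in 0 of 11 without the 5% of cells with the most UMIs. The share with Lum in P1R1, 6.95%, was 4.37% with all barcodes and 11.04% with the stricter filter. The 1 barcode furthest above the profile, left out after the data were seen, moved 5 of 8 levels beyond their counting interval. Depth limits P2R1 most, where a count of 0 allows 0.263 of 1000 UMIs.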
